A study of Homo sapiens with 6 samples.

Results

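Extracellular matrix glycoproteins of 2 kinds were followed by RNA-seq in breast cancer cells depleted of ZNF148. The first kind builds fibrils: fibronectin (FN1) and the fibrillins (FBN1, FBN2). The second kind is matricellular, meaning that the proteins are secreted into the matrix to tune adhesion, growth factor activity and matrix assembly rather than to bear load: thrombospondin 1 (THBS1), tenascin C (TNC), TGFBI, SPARC, SPOCK1, FSTL1 and ECM1. The 10 genes were chosen by symbol, and each was looked up in the row names of the deposited table after splitting joined names at commas. All 10 had 1 row among the 24108 rows of the table, and 7 of them were among the 11777 rows that passed the filter on low values, a mean of at least 1 FPKM (fragments scaled by transcript length and by library size) over the 6 samples.

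The line, MDA-MB-231, comes from triple-negative breast cancer and has a mesenchymal character. The cells were transduced for 48 h with a lentiviral hairpin against luciferase (shCtr, 3 replicates) or against ZNF148 (shZNF148, 3 replicates) and then kept for 24 h in 0.5 µg/ml puromycin, so that all 6 samples had been transduced and selected. Each condition rests on 1 hairpin in 1 line, and the comparison asks which transcripts change when this zinc finger factor is silenced. Nothing in the labels says that replicates came from separate transductions, so p-values measure the spread between these samples, which may be technical.

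Fibronectin is assembled by integrins into fibrils on the cell surface, and fibrillins form microfibrils that hold latent TGF-beta in the matrix. Thrombospondin 1 can release TGF-beta from its latent complex, TGFBI is a TGF-beta-induced integrin ligand, and tenascin C is a matrix protein linked to tissue remodelling and metastatic niches in breast cancer. FSTL1, SPARC and SPOCK1 share follistatin-like and SPARC-like modules. In bulk RNA, fewer cells that make a transcript and less of that transcript per cell cannot be told apart.

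ZNF148 itself (chr3:125225669-125375325, minus strand, GRCh38) was at 3.72, 4.36 and 4.30 FPKM in shCtr and 0.914, 0.282 and 0.834 FPKM in shZNF148. The mean level was 16.4% of the control. On the log2(FPKM + 1) scale, which shrinks changes of low values, the log2 fold change was -1.63 (SE 0.18, adjusted p = 0.00990). Without shCtr replicate 1 or 3 the adjusted p was 0.0603 or 0.0568. With all samples and 0.1 or 5 FPKM added in place of 1, the log2 fold change was -2.57 or -0.69. shZNF148 replicate 2 had the lowest ZNF148 level. The summed FPKM of a sample was between 497730 and 507312 in shCtr and between 469594 and 488173 in shZNF148, without overlap. The number of reads behind the values is unknown. Steps between low values put the relative depth of the samples between 0.806 and 1.13 of shCtr replicate 1. The line's mesenchymal markers VIM, CD44 and AXL were abundant. Each was lower in every shZNF148 replicate than in any shCtr replicate, as were 21% of all tested rows, and by under 1.5-fold. The log2 fold changes of VIM, CD44 and AXL were -0.22 (adjusted p = 0.0563), -0.46 (adjusted p = 0.0185) and -0.29 (adjusted p = 0.0364), in that order. Of 5 luminal markers, ESR1 was listed at 0 in all samples, CDH1 stayed below 0.491 FPKM and PGR stayed below CDH1. The other luminal markers, EPCAM and GATA3, were detected in all samples, averaging 9.81 and 8.47 FPKM over the 6 samples. Limma called 3.66% of the tested rows lower in shZNF148 and 1.83% higher (5.49% in all), a call needing both an adjusted p under 0.05 and over 1.5-fold change.

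Sequences are given first, because the row of FSTL1 is joined with that of a microRNA and because the hairpin carries its own seed. They were searched after the fit, with its results known. FSTL1 lies at chr3:120392293-120451016 on the minus strand of GRCh38, and the MIR198 hairpin (62 bases, chr3:120395668-120395729) lies inside exon 11 of 11 of its canonical GENCODE transcript, within the untranslated region that follows the stop codon. The hairpin makes up 1.09% of that transcript of 5682 bases. The deposited row carries both names, and its value cannot be divided between them. The mature microRNA in RefSeq, with its seed (bases 2 to 8) in capitals, and the target sequence that the study lists for shZNF148, with the 7 bases that pair with bases 2 to 8 of the guide strand in capitals, are shown for comparison.
hsa-miR-198: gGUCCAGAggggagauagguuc
shZNF148 target: cccttggtgaatgTAAATGAt

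The word TAAATGA was searched on the transcript strand in the untranslated regions after the stop codon. Of the 10 genes, FSTL1 and FN1 each held it 2 times, in regions of 4659 and 690 bases, and none of the other 8 held it. The sites are shown with their surrounding bases because both genes were measured at lower levels in every shZNF148 replicate than in any shCtr replicate. The same was true of THBS1, which lacks the word in a region of 4097 bases, and of 21% of all tested rows. FN1 and THBS1 each had a log2 fold change of -0.23, and neither passed on the adjusted p. The first FSTL1 site falls on the last bases of the MIR198 hairpin.
FSTL1, chr3:120395668-120395674: tctctatagaaTAAATGAaatcttgttac
FSTL1, chr3:120393641-120393647: agacattaaatTAAATGActcgtaaatcc
FN1, chr2:215361355-215361361: gggttttctcaTAAATGAgggctgcacat
FN1, chr2:215361296-215361302: gctcagtatttTAAATGAagtgattctaa
The word was present in 22.4% of the 10199 tested genes with such a region, and in 51% of the 816 genes whose region was within 1.2-fold of the length of that of FSTL1. The median log2 fold change was -0.0039 for genes with the word and 0.0095 for genes without it. A matching word is a description of the sequence, and its part in the levels of FSTL1 and FN1 was not tested.

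The genes spanned a wide range of levels, as the plot of FPKM by gene shows. In shCtr, THBS1 was the most abundant, followed by TGFBI, FN1, FSTL1, ECM1, TNC, FBN1 and SPARC, and the values of neighbours in this order did not overlap. FBN2 and SPOCK1 were at or near 0 and could not be ordered. Together the 10 genes summed to between 1032 and 1155 FPKM in shCtr and between 924 and 954 FPKM in shZNF148. The summed FPKM of all rows was also lower in every shZNF148 sample than in any shCtr sample. In shZNF148 the order was the same except that ECM1 stood above FSTL1. FPKM is scaled by transcript length, so levels of different genes can be set side by side, within the limits of the unknown transcript models.

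**Figure D1:**
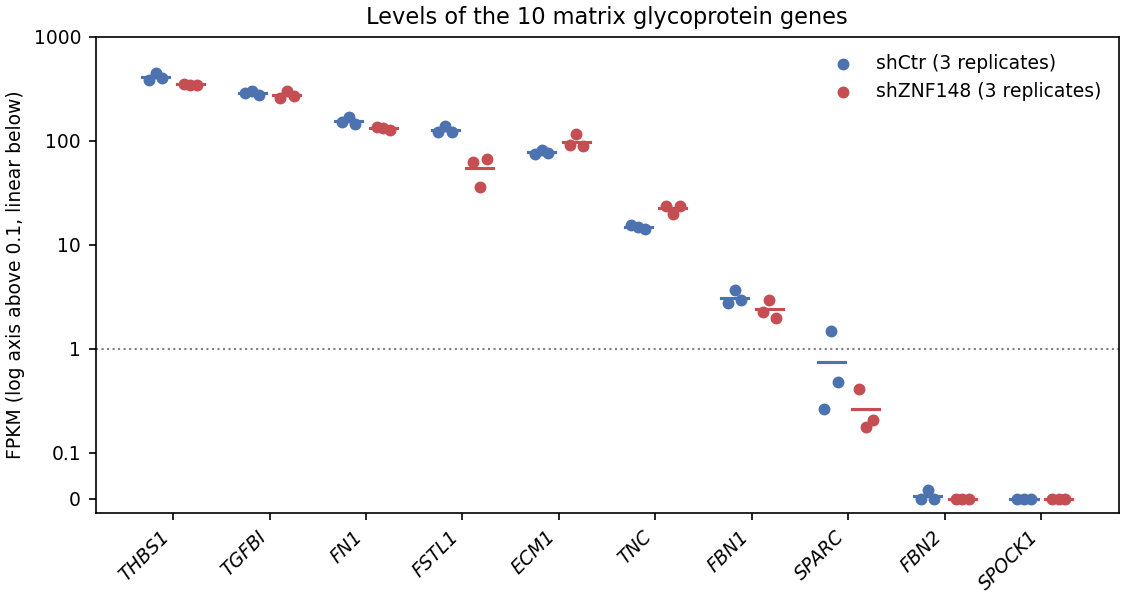
FPKM of the 10 genes in each replicate (points) with the group mean (line), ordered by the shCtr mean; the vertical axis is logarithmic above 0.1 FPKM and linear below, and the dotted line marks 1 FPKM. THBS1 lies between 346 and 446 FPKM, FSTL1 drops below ECM1 in shZNF148, and FBN2 and SPOCK1 lie at or near 0.

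Of the 7 tested genes, 1 was called lower, FSTL1, and none was called higher. This is 14.3% of the tested members against 3.66% of all tested rows, from a single gene. On the adjusted p alone FSTL1 was again the 1 member that was lower, where 8.13% of all rows were, and TNC the 1 that was higher, where 5.46% were. The median log2 fold change of the 7 genes was -0.23, against 0.01 over all tested rows. The groups did not overlap in 5 of the 7, with 3 lower and 2 higher in shZNF148, where 41% of all tested rows did not overlap, 21% lower and 20% higher. For a single gene, the smallest p that an exact two-sided permutation test allows in this design is 0.1.

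FSTL1 encodes a secreted glycoprotein with a follistatin-like domain that modulates BMP and TGF-beta family signalling. The joined row of FSTL1 and MIR198 was at 121, 139 and 121 FPKM in shCtr and at 62.6, 36.1 and 66.7 FPKM in shZNF148. All 3 shZNF148 values lay below every shCtr value, and replicate 2 was the lowest. The mean fell from 127 ± 10.4 to 55.1 ± 16.6 FPKM (SD, n = 3 each), to 43.4% of the control. The log2 fold change was -1.24 (SE 0.22, 95% interval -1.77 to -0.70, adjusted p = 0.0233). Without shZNF148 replicate 2 the log2 fold change was -0.96 (adjusted p = 0.00450). The call was lost when any of the 3 shCtr replicates or shZNF148 replicate 1 was left out, with adjusted p-values between 0.0516 and 0.0915, while the log2 fold change stayed between -1.40 and -0.96 over all 6 omissions.

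The level of FSTL1 relative to ECM1 reversed between the groups. FSTL1 was at 1.61, 1.70 and 1.60 times the level of ECM1 in shCtr and at 0.693, 0.314 and 0.754 times in shZNF148. This ratio was chosen after the values were seen and is given without a test. By contrast the ratio of THBS1 to FN1 was 2.52, 2.64 and 2.78 in shCtr and 2.62, 2.64 and 2.71 in shZNF148, so that these abundant transcripts kept nearly the same proportion in every sample.

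The rows whose pattern was most like that of FSTL1 over the 6 samples were NFIB, a nuclear factor I transcription factor, with Pearson's r = 0.999, IRAK3, a negative regulator of Toll-like receptor signalling, with r = 0.999, and GALNT6, an enzyme that starts mucin-type O-glycosylation, with r = 0.998. In each of them shZNF148 replicate 2 was the lowest sample, which follows from choosing rows by their correlation with FSTL1 and adds nothing to it. NFIB was at 1.99, 2.27 and 1.92 FPKM in shCtr and at 0.911, 0.299 and 0.915 FPKM in shZNF148. These correlations are over 6 samples in 2 groups and serve as a description.

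TNC encodes tenascin C, a hexameric matrix glycoprotein with anti-adhesive properties (chr9:115019575-115118207, minus strand). It was at 15.4, 14.7 and 14.3 FPKM in shCtr and at 23.4, 19.9 and 23.5 FPKM in shZNF148. Every shZNF148 value lay above every shCtr value, and replicate 2 was the lowest of the 3. It averaged 14.8 ± 0.563 FPKM in the control group and 22.3 ± 2.05 FPKM in the depleted group (SD, n = 3 each), a ratio of means of 1.51. On the log2(FPKM + 1) scale the change was 0.56 (SE 0.09, 95% interval 0.35 to 0.76), or 1.47-fold, with an adjusted p of 0.0172, so that TNC passed on the adjusted p but not on the 1.5-fold limit. Without shZNF148 replicate 2 TNC passed both (log2 fold change 0.63, adjusted p = 0.00658), and without any shCtr replicate or without shZNF148 replicate 1 its adjusted p was between 0.0529 and 0.0780.

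ECM1 encodes extracellular matrix protein 1, a secreted protein that binds several matrix components (chr1:150508062-150513789, plus strand). It was at 75.3, 81.8 and 75.7 FPKM in shCtr and at 90.3, 115 and 88.5 FPKM in shZNF148. The groups did not overlap, and replicate 2 was the highest shZNF148 sample. The log2 fold change of 0.32 (SE 0.11, 95% interval 0.06 to 0.58, adjusted p = 0.0926) did not pass. Without shZNF148 replicate 2 the log2 fold change was 0.20 (adjusted p = 0.0689), a change of over 1.5 times in its size.

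FN1 (chr2:215360440-215436073, minus strand) was at 152, 169 and 143 FPKM in shCtr and at 134, 131 and 128 FPKM in shZNF148. THBS1 (chr15:39581079-39599466, plus strand) was at 382, 446 and 398 FPKM in shCtr and at 351, 347 and 346 FPKM in shZNF148. In both genes the shZNF148 replicates lay close together and below all shCtr replicates, and shCtr replicate 2 was the highest sample. FN1 averaged 155 ± 13.2 FPKM in the control group and 131 ± 3.07 FPKM after ZNF148 depletion (SD, n = 3 each), with a log2 fold change of -0.23 (SE 0.07, 95% interval -0.41 to -0.06, adjusted p = 0.0807). THBS1 averaged 409 ± 33.4 and 348 ± 2.35 FPKM in the same order (SD, n = 3 each), with a log2 fold change of -0.23 (SE 0.07, 95% interval -0.40 to -0.06, adjusted p = 0.0786). Neither passed. Non-overlap of this kind and direction was seen in 21% of all tested rows. Without shCtr replicate 2, the log2 fold changes were -0.17 for FN1 (adjusted p = 0.173) and -0.16 for THBS1 (adjusted p = 0.171). With quantile normalization of all 6 samples they were -0.17 for FN1 (adjusted p = 0.150) and -0.17 for THBS1 (adjusted p = 0.181).

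TGFBI (chr5:136028988-136063818, plus strand) encodes a secreted protein that binds collagens and integrins. It was at 288, 299 and 277 FPKM in shCtr and at 260, 302 and 271 FPKM in shZNF148. The highest and the lowest of the 6 values were both shZNF148 samples. The log2 fold change was -0.05 (SE 0.07, adjusted p = 0.638), and its 95% interval of -0.23 to 0.12 leaves out changes of 1.5-fold in either direction. With quantile normalization the sign turned, to 0.03.

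**Figure D2:**
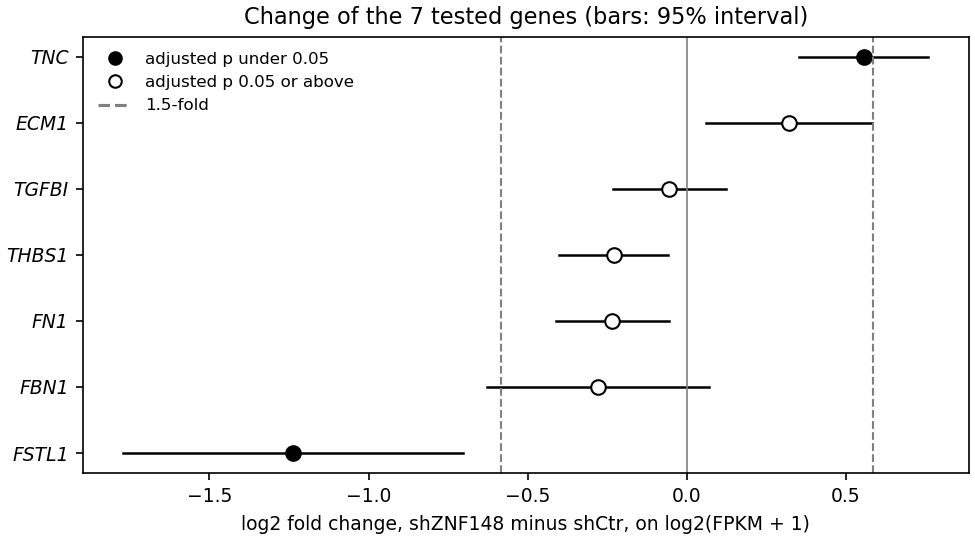
Log2 fold change (shZNF148 minus shCtr, on log2(FPKM + 1)) of the 7 tested genes with 95% intervals from limma; filled points have an adjusted p under 0.05 and dashed lines mark 1.5-fold. FSTL1 at -1.24 lies beyond the dashed line, TNC at 0.56 just inside it, and the interval of TGFBI spans 0.

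FBN1 encodes fibrillin 1, the main microfibril protein of adult tissue (chr15:48408313-48645721, minus strand). It was low, at 2.74, 3.63 and 2.93 FPKM in shCtr and at 2.25, 2.93 and 1.99 FPKM in shZNF148. The groups overlapped. The log2 fold change was -0.28 (SE 0.15, 95% interval -0.63 to 0.07, adjusted p = 0.229), which did not pass and does not leave out a 1.5-fold decrease. FBN2 (fibrillin 2, a developmental form, chr5:128257909-128659185, minus strand) was listed at 0 in 5 samples and at 0.0196 FPKM in shCtr replicate 2. SPOCK1 (testican 1, a SPARC-related proteoglycan, chr5:136975298-137598379, minus strand) was listed at 0 in all 6 samples. A listed 0 can be a failed estimate in this table, in which 114 rows held both a 0 and a value over 20 FPKM.

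SPARC (osteonectin, a collagen-binding protein, chr5:151661096-151686975, minus strand) was at 0.265, 1.49 and 0.472 FPKM in shCtr and at 0.410, 0.178 and 0.205 FPKM in shZNF148. The single value above 1 FPKM was in shCtr replicate 2, and the groups overlapped. Its mean over the 6 samples did not reach the filter, and in the fit without a filter its adjusted p was 0.357. Without shCtr replicate 2 the mean of the remaining shCtr samples was 0.368 FPKM, against 0.265 FPKM in shZNF148.

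Markers of fibroblasts, which make SPARC, fibrillins and fibronectin in tissue, stood apart in that same library. Of 9 fibroblast markers, 7 had their highest value in shCtr replicate 2. Decorin (DCN), a defining marker, was at 2.82 FPKM there and listed at 0 in the other 5 samples. The 6 markers that did not pass the filter (DCN, LUM, PDGFRA, COL3A1, THY1 and FAP) summed to 4.59 FPKM in shCtr replicate 2 and to between 0.0486 and 0.247 FPKM in the other 5 samples. The 9 markers together ranged from 14.9 to 26.3 FPKM in shCtr and from 18.8 to 23.0 FPKM in shZNF148, and most of this sum came from PDGFRB, COL1A1 and COL1A2, which were detected in all samples. These 3 tested markers did not move together between the groups, and none was called. COL1A2, a chain of type I collagen, was at 5.87, 9.65 and 4.88 FPKM in shCtr and at 11.4, 17.1 and 10.4 FPKM in shZNF148, higher without overlap (log2 fold change 0.86, SE 0.26, adjusted p = 0.0727). COL1A1, the partner chain, was lower without overlap (-0.42, SE 0.16, adjusted p = 0.123), and the groups overlapped for PDGFRB (-0.47, SE 0.30, adjusted p = 0.313). Of the members with values above 0, FN1, THBS1, FSTL1, FBN1, FBN2 and SPARC were also highest in shCtr replicate 2, where alone FBN2 was above 0. How many of all rows were highest in that sample was not counted. The part of the fibroblast marker difference in the levels of these members was not tested. Endothelial markers summed to no more than 0.618 FPKM and leukocyte markers to no more than 2.01 FPKM in any sample.

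The other genes of the same pathway were taken from lists, which were chosen with earlier results of these data known. The first held 24 genes, other matricellular genes together with follistatin and follistatin-like genes. Of them 6 were tested and 4 called lower, with none called higher. These 4 were 66.7% of the tested genes of the list, where 3.66% of all tested rows were called lower. The median log2 fold change of the 6 genes was -0.94, against 0.01 over all tested rows. Follistatin (FST) and follistatin-like 3 (FSTL3), which bind and neutralise activins, were among the 4 called. FSTL3 was at 15.0, 16.7 and 15.5 FPKM in shCtr and at 8.43, 6.70 and 7.42 FPKM in shZNF148, a log2 fold change of -0.98 (SE 0.10, adjusted p = 0.00931). FST was at 3.44, 3.95 and 4.38 FPKM in shCtr and at 1.04, 1.66 and 2.41 FPKM in shZNF148, a log2 fold change of -0.89 (SE 0.20, adjusted p = 0.0356).

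The remaining 2 were CYR61 and CTGF, secreted integrin ligands of the CCN family. CYR61 was at 907, 745 and 830 FPKM in shCtr and at 405, 329 and 453 FPKM in shZNF148. CTGF was at 142, 145 and 129 FPKM in shCtr and at 76.2, 43.7 and 86.6 FPKM in shZNF148, with its lowest value, as for FSTL1, in replicate 2. Their log2 fold changes were -1.07 (adjusted p = 0.0111) and -1.05 (adjusted p = 0.0372). The nearest relatives of THBS1 did not pass. THBS2 was at 2.14, 1.89 and 1.90 FPKM in shCtr and at 1.22, 0.0895 and 0.919 FPKM in shZNF148, with a log2 fold change of -0.83 (adjusted p = 0.0820). The number of genes called in this list was 0 without shCtr replicate 1 or 3, 2 without shCtr replicate 2 or shZNF148 replicate 1, and 3 without shZNF148 replicate 2.

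Of 21 other genes of microfibrils and elastic fibres, 9 were tested and 2 called lower. This is 22.2% of those tested, against 3.66% of all tested rows. FBLN7, a fibulin, averaged 8.53 ± 1.41 FPKM in the control group (SD, n = 3) and was at 4.15, 5.27 and 4.25 FPKM in shZNF148 (log2 fold change -0.77, SE 0.14, adjusted p = 0.0223). EFEMP2, the fibulin needed for elastic fibre assembly, was at 4.73, 4.22 and 4.25 FPKM in shCtr and at 2.58, 2.61 and 2.49 FPKM in shZNF148 (-0.60, SE 0.09, adjusted p = 0.0172). Neither was called without any 1 of the shCtr replicates or without shZNF148 replicate 1. The median log2 fold change of the 9 genes was -0.32. Of 18 receptors for these proteins, 11 were tested and 2 called lower, which is 18.2% of those tested, with a median of -0.28. SDC1, a heparan sulphate proteoglycan that binds fibronectin, fell to 51.2% of its control mean (log2 fold change -0.93, SE 0.10, adjusted p = 0.00990). LRP1, an endocytic receptor for thrombospondin complexes, fell to 61.8% (-0.63, SE 0.10, adjusted p = 0.0172). Without shCtr replicate 2 or 3, or without shZNF148 replicate 3, 1 receptor was called.

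Of 15 genes of TGF-beta signalling and matrix processing, 13 were tested and 2 called lower. This is 15.4% of those tested, against 3.66% of all tested rows. TGFB2, a ligand, was at 39.7, 41.0 and 36.9 FPKM in shCtr and at 22.8, 13.0 and 23.8 FPKM in shZNF148 (log2 fold change -0.99, adjusted p = 0.0330). The median of the 13 genes was 0.04, and 7 of them were above 0, unlike the other lists, whose medians were below 0. Without overlap 4 were lower and 5 higher, where 21% and 20% of all tested rows were. On the adjusted p alone 4 of the 13 passed, where 8.13% of all rows were lower and 5.46% higher. They included TGFBR2, a receptor, which was higher (0.43, adjusted p = 0.0275), and SMAD3, which was lower (-0.35, adjusted p = 0.0280). No gene of the 4 lists was called higher. Without shCtr replicate 1, no gene of any of the 4 lists was called, and without shCtr replicate 2 or 3 or shZNF148 replicate 1, 1 gene of the TGF-beta list was.

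**Figure D3:**
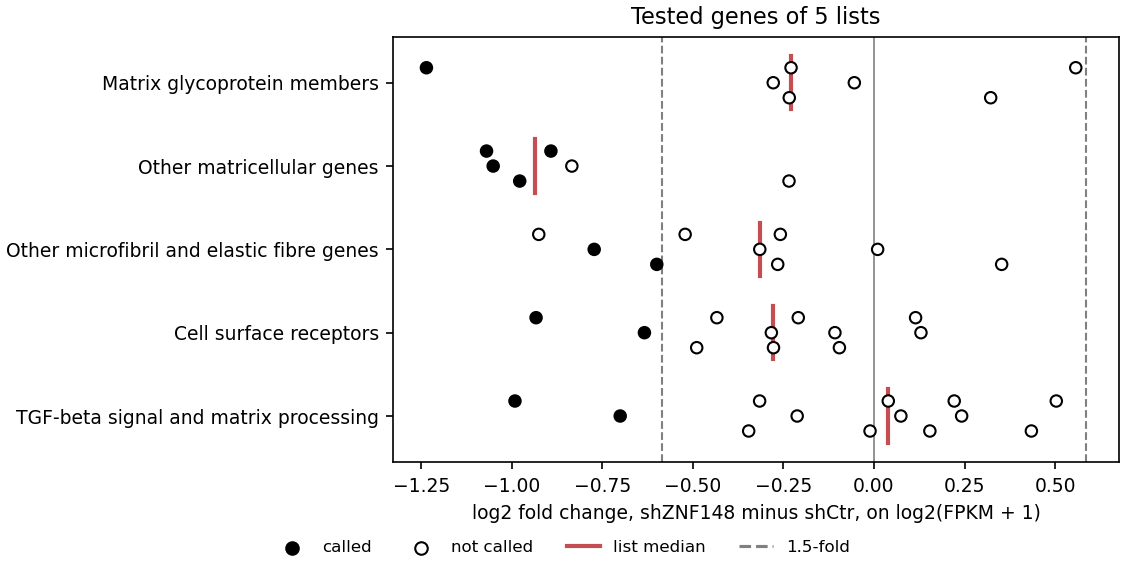
Log2 fold change (shZNF148 minus shCtr, on log2(FPKM + 1)) of each tested gene in 5 lists; filled points were called, red lines are list medians and dashed lines mark 1.5-fold. The 6 tested genes of the other matricellular list, which includes follistatin and follistatin-like genes, all lie below 0, with a median of -0.94. The members have a median of -0.23.

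The promoters of 9 members, taken from RefSeq (GRCh38.p14) as 250 bases before to 50 bases after the start, were searched on both strands for CCCTCCC, a C-rich word, ZNF148 being known to bind GC-rich promoter elements, and for the GC box GGGCGG. The study's own occupancy data were not analysed here. CCCTCCC was present in the promoters of FN1, FBN2, TNC and TGFBI, that is in 4 of 9, against 26.6% of all 35116 promoters in the table. GGGCGG was present in 7 of 9, against 45% of all promoters. The promoters of FN1, with 6 matches, and of FBN2, THBS1 and TGFBI, with 4 each, held most GC boxes, and those of FBN1 and SPARC held neither word. For the 3 measured genes with CCCTCCC, the match nearest to the start is shown with the motif, on either strand, in capitals, because these 3 genes were lower, higher and little changed in mean level.
FN1, chr2:215436096-215436124: tccagaggggcGGGAGGGgaccgtcccat
TNC, chr9:115118257-115118285: cctgttccgctGGGAGGGctgttccttta
TGFBI, chr5:136028929-136028957: tggcgtccgctCCCTCCCgctcgcagctt
The FN1 match overlaps a GC box. The promoter of FSTL1, the called member, held 1 GC box and no CCCTCCC within this window, as did that of ECM1. These matches describe letters in a window and say nothing of binding.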

How the data were processed

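RNA-seq was analysed in 3 shCtr and 3 shZNF148 samples of MDA-MB-231, grouped by their labels. The deposited values are FPKM, made by the authors for each sample without pooling. The submitters' processing notes name TopHat2 2.0.14, Cufflinks 2.2.1 and Cuffnorm 2.2.1 and the builds hg18 and hg19, whereas the paper's methods name Salmon, GRCh38 and DESeq2, and the annotation is not given in the sources used here. Printed coordinates come from GENCODE release 44 on GRCh38. FPKM does not give read counts, so no count test was run.

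Values were transformed as log2(FPKM + 1) and fitted with limma 3.58.1 (R 4.3.3) for every row averaging 1 FPKM or more, with no covariate besides condition, a trended prior variance and p-values adjusted by Benjamini-Hochberg across those rows. Low genes have their fold changes understated by the pseudocount. Calls needed an adjusted p below 0.05 together with over 1.5-fold change. The fit was tested on simulated data. The named genes were ZNF148, the 10 members, up to 4 called genes of each list by size of change, and the 3 rows most correlated with a called member. THBS2, TGFBR2 and SMAD3 were named after their values were seen. For 1 called gene of the TGF-beta list, the values are not reported here. The members and lists were chosen with earlier results of these data known. Alternatives covered pseudocount, filter, scaling, replicate block, variance model, summed rows and leaving out each replicate.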

Additional observations from a re-analysis of the deposited data

How the results depend on the processing

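FSTL1 was the 1 member called lower and 0 were called higher. With the replicate number as a block, 0 members were called lower (FSTL1, adjusted p = 0.0590), 216 of all rows were called lower and 99 higher, against 431 and 216 without the block. Of the fibroblast markers, 1 was called higher with the block and 0 without it. The replicate numbers share only a number: deviations of same-numbered samples had correlations of 0.00104, -0.0882 and 0.0304 across rows, and 1 of 3 shZNF148 replicates correlated best with its own number. When single replicates were omitted, the count of members called ranged from 0 to 1 in each direction, rows called lower from 26 to 397 and rows called higher from 3 to 222; the lowest counts came without shCtr replicate 1. With a pseudocount of 5 FPKM, 204 rows were called lower and 76 higher. Fewer samples leave fewer degrees of freedom; the cause of the other differences was not tested. TGFBI turned to 0.0346 under quantile normalization, where ECM1 also reached an adjusted p of 0.0490 at 0.38 on the log2 scale. With no filter, 2 genes of the matricellular and follistatin list and 1 TGF-beta gene were called lower, and with a pseudocount of 5 FPKM 0 microfibril genes were. FSTL1, TNC, ECM1, FN1, THBS1 and FBN1 kept their direction under every alternative that tested them. Of ZNF148, the tested members and the called genes named from the lists, FBN1, ZNF148, EFEMP2 and FST do not reach a mean of 5 FPKM. They have no value under that filter. The depth behind low values, as for SPARC and FBN2, is unknown and limits what can be said of them.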
